A study of Mus musculus with 6 samples.

Results

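Circular RNAs that listed the gene Rere as their host were examined in mouse cortex. All circRNAs with Rere as the single listed source gene were taken, which gave 29 of the 11171 circRNAs in the table. The gene was chosen by the measured number of circles it carried, so that number is a description and not a finding. The table covered 6 libraries, each from the cortex of 1 male C57BL/6 mouse (C57BL/6J in the study's methods) aged 6 weeks, with 3 Control and 3 TLE mice. Control mice received saline injections. TLE mice received scopolamine methyl bromide and then pilocarpine, a muscarinic agonist that triggers Status Epilepticus (SE), which was ended with diazepam, and their cortex was taken 24 h after SE. The model therefore covers the day after a drug-induced seizure state, in whole cortex without separation of cell types. Each value was SRPBM, the number of reads that cross the back-splice junction of a circle, scaled by the submitters to the sequencing depth of that library.

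Rere, also called atrophin-2, is a nuclear protein that acts with nuclear receptors in transcription. Its BAH, ELM2, SANT and GATA-type zinc finger domains lie toward the N-terminus and recruit histone deacetylases and histone methyltransferases, and the C-terminal part is related to atrophin-1. The gene is required for development of the brain, eye and heart, and it takes part in retinoic acid signalling. A circRNA forms when the spliceosome joins the end of an exon back to the start of the same or an earlier exon. The circle has no free ends, so it outlives most linear RNAs and accumulates in neurons, which divide no more. Back-splicing is favoured where long introns with repeats lie on both sides of the exons.

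Rere lies on the plus strand of mm10 at chr4:150281646-150621966. The annotated transcript used here has 23 exons and 7728 nucleotides and encodes 1558 residues, with the start codon in exon 2 at position 150406340. Circles are named below by their first and last exon. The 26 circles with both ends on exon boundaries drew on only 7 start exons and 8 end exons, so a small set of sequences recurs in their junctions. The junctions of 5 circles on which the results turn are shown with the last 15 bases of the end exon in lower case and the first 15 bases of the start exon in capitals, read from the annotated transcript in the sense of the RNA.
Exons 4–7 (mmu_circ_0007306, chr4:150439343-150477468): caaccctgagacaagGTCCACAGCTCCCAG
Exons 4–11 (mmu_circ_0007309, chr4:150439343-150534945): acagaggatgaagtgGTCCACAGCTCCCAG
Exons 4–10 (mmu_circ_0007308, chr4:150439343-150510038): aatgcactgaacacaGTCCACAGCTCCCAG
Exons 5–10 (mmu_circ_0007314, chr4:150468695-150510038): aatgcactgaacacaAGTAAGAGGGACCAT
Exons 2–11 (mmu_circ_0007299, chr4:150406196-150534945): acagaggatgaagtgAATATTTGAAACGTT

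The 4–7, 4–11 and 4–10 circles share the 15 bases after the junction, because all begin at exon 4. The 4–11 and 2–11 circles share the 15 bases before it, because both end at exon 11. The exons that carry the most signal on each side are given whole, with the bases that enter the junction in capitals: exon 4, where the circles with the most signal began, and exons 7 and 11, where the circles with the most signal ended. All 3 are coding.
Exon 4 (chr4:150439343-150439468, 126 bases, residues 133 to 174): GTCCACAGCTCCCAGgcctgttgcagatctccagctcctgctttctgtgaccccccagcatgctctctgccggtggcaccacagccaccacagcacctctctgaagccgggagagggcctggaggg
Exon 7 (chr4:150477364-150477468, 105 bases, residues 242 to 277): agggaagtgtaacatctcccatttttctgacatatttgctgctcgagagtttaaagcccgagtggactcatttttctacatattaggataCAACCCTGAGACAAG
Exon 11 (chr4:150534847-150534945, 99 bases, residues 369 to 401): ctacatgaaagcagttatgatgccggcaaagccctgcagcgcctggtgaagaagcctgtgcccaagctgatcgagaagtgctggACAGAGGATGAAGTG

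Each library held between 32504 and 56516 junction reads over all circRNAs, as counted from the steps of its values, and TLE 3 was the deepest. All values above 0 were whole multiples of a step of 8.55 to 10.3 SRPBM, taken here as 1 junction read, and the smallest was 2 steps, so that a listed 0 can hold 0 or 1 read. The summed SRPBM of all circRNAs ran from 330961 to 360023 in Control and from 335753 to 489032 in TLE. Among hosts that mark cell types of the cortex, the neuronal gene Rims2 carried circles that summed to 1795 to 2119 SRPBM in Control and 2427 to 3191 SRPBM in TLE, which did not overlap. The neuronal genes Syt1 (129 to 288 SRPBM in Control and 145 to 289 SRPBM in TLE) and Nrxn3 (112 to 179 SRPBM and 132 to 182 SRPBM) overlapped between the groups. The astrocyte genes Slc1a2 and Gpc5 summed to 27.9 to 121 SRPBM over both groups and the oligodendrocyte gene St18 to 0 to 34.2 SRPBM. All 3 microglial, all 3 endothelial, both liver and both muscle hosts were without a listed circle, so circles say little about those cells here. In bulk cortex, fewer cells of a type and less RNA per cell cannot be told apart.

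Rere was the 4th host by number of circles among 3469 host genes with a single listing, level with Adgrb3 and after Dgki (44 circles), Nbea (39) and Rims2 (31). The median host had 2 circles. By mean summed SRPBM, which counts junctions and so does not grow with transcript length, Rere was 17th with 1721 SRPBM. How this signal was divided is not free of the rule, since the share of a top circle tends to fall as circles are added. The circle with the highest mean, 4–7, held 19.6% of the Rere signal. Among the 56 hosts with 15 or more circles, the top circle held 16.3% to 79.1%, with a median of 32.8%, and Rere was 51st in that order. Most of these hosts had fewer circles than Rere. Among hosts with at least as many, it held 32.2% in Dgki, 45.1% in Nbea, 53.2% in Rims2 and 27.1% in Adgrb3. In Agtpbp1, with 27 circles, it held 17.0%. Rere was also 5th of the 56 by the share of its circles above 0 in all 6 libraries, 37.9% against a median of 19.7%. Its signal was thus spread over several circles, 11 of them found in every library.

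Of the 29 circles, 26 (89.7%) started at the first base of an annotated Rere exon and stopped at the last base of one. The 95% Wilson interval, 73.6% to 96.4%, treats the circles as independent, though they share starts and ends. The other 3 of the 29 had 1 end on a boundary and a start inside an intron. Of these, mmu_circ_0007291 and mmu_circ_0007292 began in intron 1 and ended with exon 2, and mmu_circ_0007311 began in intron 4 and ended with exon 8. Each was listed in 1 library, with 2 or 3 junction reads. Circles within Rere but without a listed host are not among the 29. Of those, mmu_circ_0007301 and mmu_circ_0007302 start within intron 2, end with exon 4 and had 14 and 15 junction reads. No circle held exon 1 or any exon from 13 to 23. The circles therefore came from exons 2 to 12, which encode residues 1 to 428 and so include the start codon but not the C-terminal atrophin part.

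The starts and ends fell on hot spots that were not the same for number and for signal. The start of exon 2, which carries the start codon, was used by 8 of the 29 circles (27.6%) and was the most frequent start. It was joined to all 8 end exons, yet its circles held 13.5% of the Rere signal. The starts of exons 4 and 5 were used by 5 circles each and held 45.6% and 28.0% of the signal. The end of exon 11 was used by 6 circles (20.7%) and held 26.4% of the signal, the most of any end. The end of exon 7 was used by 4 circles and held 24.3%, that of exon 10 by 4 circles with 20.0%, that of exon 8 by 5 circles with 12.5%, and that of exon 12 by 4 circles with 3.75%.

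Most combinations of these ends existed. From the 7 start exons and 8 end exons, 38 pairs were possible with the end exon at or after the start exon, and 26 of them (68.4%) were listed. The starts of exons 2, 4 and 5 were each joined to the ends of exons 7, 8, 10, 11 and 12. The start of exon 3, which lies between exons 2 and 4, was joined to the ends of exons 4, 7 and 8 but in no library to those of exons 10, 11 and 12. Exon 2 alone was listed as a circle of a single exon (469 bases). Exons 3, 4, 7 and 8 also serve as both a start and an end, and none of them was listed as a circle of its own. They measure 71, 126, 105 and 49 bases, and the shortest listed circle with both ends on boundaries holds 197 nucleotides. Whether circles as short as these exons could be called was not tested. For the unlisted pairs named here the values allow up to 1 read in each library.

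**Figure D1:**
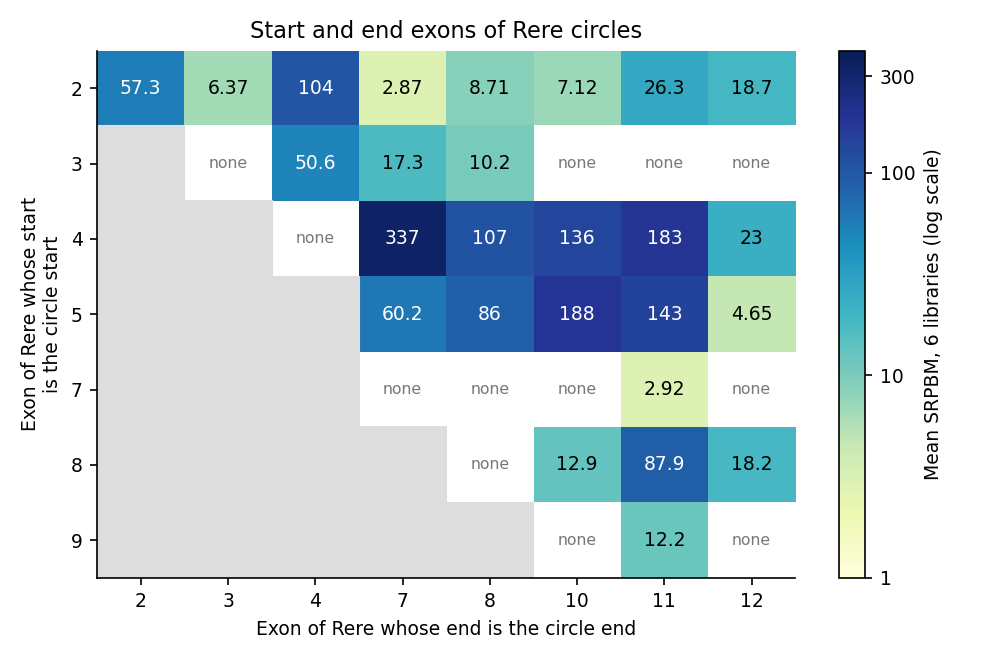
Mean SRPBM over the 6 libraries of the 26 Rere circles with both ends on exon boundaries, by start exon (rows) and end exon (columns), with darker cells for higher values on a log colour scale, grey for pairs in which the end would precede the start, and "none" for pairs that were not listed. The row of exon 2 is filled at all 8 ends, and the highest values lie in the rows of exons 4 and 5, led by 337 SRPBM for exons 4–7.

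The exons at the ends of circles lay beside long introns. The introns before the 7 start exons measured 6972 to 124120 bases (median 22534), and those before the 15 exons that started no circle measured 109 to 40557 bases (median 926). The introns after the 8 end exons measured 7749 to 40557 bases (median 24833), against 109 to 124120 bases (median 760.5) after the 14 exons that ended none. Exons 5 and 6 are separated by 1494 bases and exons 9 and 10 by 984 bases, and neither short intron bounded a circle. The 10 introns from exon 13 on measured 109 to 978 bases. Length did not set apart every start exon, since exons 11, 12 and 13 follow introns of 24808, 35270 and 40557 bases and started no circle. Exon 6 precedes an intron of 6972 bases and ended none, and the end exons all precede introns of 7749 bases or more. Exon 1 has no intron before it and cannot end a circle, and exon 23 has none after it and cannot start one. Both are among the exons counted above as ending or starting none, so the 124120 bases after exon 1 say nothing on length. These are features of 1 gene and are given as a description.

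**Figure D2:**
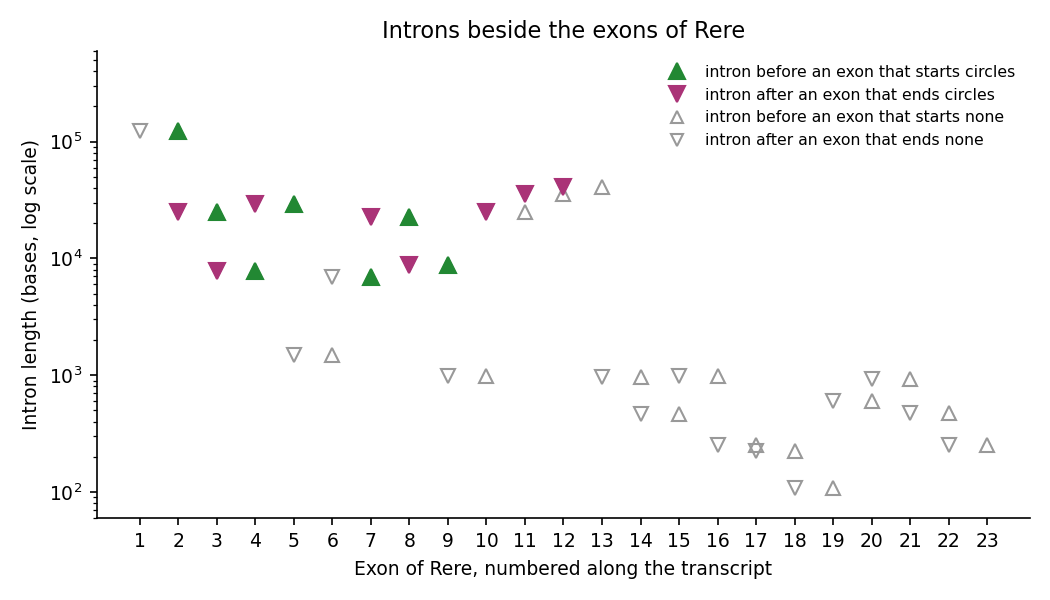
Length in bases (log scale) of the intron before (upward triangles) and after (downward triangles) each exon of Rere, numbered along the transcript, with filled symbols where the exon starts or ends a listed circle. All filled symbols lie at 6972 bases or more and at exons 2 to 12, and the introns from exon 13 on lie at 109 to 978 bases.

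The circles spanned 469 to 164101 bases of the genome (median 45946), and 5 spanned over 100 kb. Counted as spliced exons, they held 1 to 11 exons (median 5) and 197 to 1428 nucleotides (median 547). The exons between the ends were taken from the annotation, since a junction read does not show them. On that count 15 of the 26 had a length that is a multiple of 3. Exons 5 and 6 lay inside 17 of the 26 circles and inside circles holding 79.4% of the signal of these 26, and exon 7 inside 18 circles holding 79.5%. Exon 12 lay inside 4 circles holding 3.77%.

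Detection varied from circle to circle. Of the 29, 11 were above 0 in all 6 libraries, 1 in 5, 3 in 4, 2 in 3, 5 in 2 and 7 in a single library. The 29 circles rested on 1151 junction reads in all, with a median of 13 and a maximum of 224 per circle, and 12 circles rested on 10 reads or fewer. The 13 circles with the highest means held over 90% of the signal. Control libraries detected 17, 18 and 17 Rere circles and TLE libraries 16, 18 and 20. The numbers overlapped between the groups (exact permutation test, two-sided, p = 0.8), and the highest was in TLE 3, the deepest library. As a share of all circRNAs detected, Rere circles made up 0.365% to 0.420% in Control and 0.335% to 0.401% in TLE (exact permutation test, two-sided, p = 0.5).

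The 10 circles with the highest means began at exons 2, 4, 5 or 8. The 4–7 circle was the highest of all Rere circles in each of the 6 libraries, and the 131st of all 11171 circRNAs by mean. It measured 282, 279 and 241 SRPBM in Control 1 to 3 and 413, 333 and 476 SRPBM in TLE 1 to 3. The lowest TLE value thus lay above the highest Control value.

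The second place differed between libraries. The 5–10 circle had the next highest mean, with 188, 121 and 172 SRPBM in Control and 279, 245 and 121 SRPBM in TLE. It was second in Control 1, Control 3 and TLE 1, and the groups overlapped. The 4–11 circle followed with 76.9, 112 and 164 SRPBM in Control and 186, 298 and 260 SRPBM in TLE, and here the groups did not overlap. The 5–11 circle (mmu_circ_0007315) measured 145, 121 and 129 SRPBM in Control and 72.3, 105 and 286 SRPBM in TLE. Its TLE libraries lay on both sides of the Control range.

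The 4–10 circle measured 162, 149 and 77.5 SRPBM in Control and 103, 149 and 173 SRPBM in TLE, and the 4–8 circle (mmu_circ_0007307) 120, 121 and 77.5 against 62.0, 105 and 156 SRPBM. Both overlapped between the groups. The 2–4 circle (mmu_circ_0007295), which holds the start codon, measured 85.5, 102 and 51.7 SRPBM in Control and 82.6, 149 and 156 SRPBM in TLE. The 8–11 circle (mmu_circ_0007319) had means of 81.6 ± 41.3 SRPBM (SD, n = 3) in Control and 94.2 ± 23.4 SRPBM (SD, n = 3) in TLE. The 5–8 circle (mmu_circ_0007313) had 94.5 ± 45.7 and 77.6 ± 35.6 SRPBM, and the 5–7 circle (mmu_circ_0007312) 55.6 ± 19.1 and 64.7 ± 6.56 SRPBM. From the second place down, neighbours in the order of means differed by less than their spread over libraries.

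**Figure D3:**
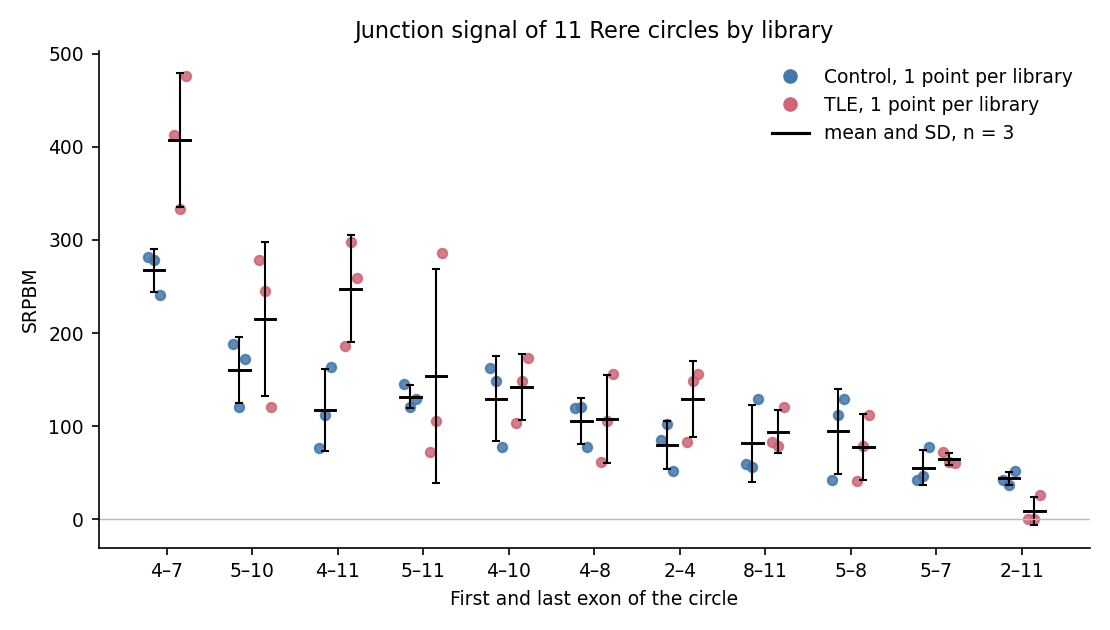
SRPBM of 11 Rere circles in the 3 Control libraries (blue) and the 3 TLE libraries (red), with the mean and SD of each group (n = 3) in black. The groups do not overlap for the 4–7 and 4–11 circles, where all TLE libraries are higher, and for the 2–11 circle, where all are lower.

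The comparison of TLE with Control asks which circles differ in the cortex a day after SE. It used limma with a pseudocount of 17.1 SRPBM, the lowest nonzero value in the table, and was fitted on all 4271 circRNAs that were detected in 3 libraries or more. Of the 29 Rere circles, 17 passed that filter and 12 did not. None of the 17 passed the threshold of a log2 fold change of 1.5 either way with an unadjusted p below 0.05, which 1.57% of all circRNAs tested passed. After Benjamini-Hochberg adjustment over all 4271 circRNAs, 0 had an adjusted p below 0.05 and 222 had an unadjusted p below 0.05. Among Rere circles, 2 were higher in TLE at an unadjusted p below 0.05, where the background was 4.12% of all circRNAs, and 1 was lower, where it was 1.08%. The same 3 circles were those whose groups did not overlap, 2 higher against a background of 8.94% and 1 lower against 2.11%. The log2 fold changes of the 17 ran from -1.38 to 1.01 with a median of 0.20, beside a median of 0.17 over all circRNAs tested, and 12 were above 0 and 5 below.

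The 4–11 circle had the largest increase. Its mean was 117 ± 43.7 SRPBM (SD, n = 3) in Control and 248 ± 57.0 SRPBM (SD, n = 3) in TLE. After addition of the pseudocount, which shrinks the folds of low values, the log2 difference was 1.01 (SE 0.34, 95% interval 0.29 to 1.72, limma unadjusted p = 0.00844, adjusted p = 0.838). Without Control 1, where it was lowest, the difference was 0.77 and missed the p threshold (limma unadjusted p = 0.0517), and without a trend in the variance the unadjusted p = 0.0506.

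The 4–7 circle had means of 267 ± 22.7 SRPBM (SD, n = 3) in Control and 407 ± 71.6 SRPBM (SD, n = 3) in TLE. The log2 difference was 0.57 (SE 0.26, 95% interval 0.03 to 1.11, limma unadjusted p = 0.0406, adjusted p = 0.881). With every library rescaled to the same total SRPBM it was 0.35 (limma unadjusted p = 0.148). That rescaling moved the median over all 4271 circRNAs from 0.17 to 0.01. The difference also missed the p threshold when any 1 library other than TLE 2 was left out (Control 1, 2 or 3, TLE 1 or TLE 3, limma unadjusted p from 0.052 to 0.116).

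The 2–11 circle spans 128750 bases and went the other way. It had 42.7, 37.2 and 51.7 SRPBM in Control 1 to 3, from 5, 4 and 6 reads, and 0, 0 and 26.0 SRPBM in TLE 1 to 3, from 3 reads in TLE 3. Over the groups that is 15 reads against 3, a rate 4.79 times higher in Control with an exact 95% counting interval of 1.36 to 25.8, which covers counting error only. The interval takes TLE 1 and TLE 2 as 0 reads, though each listed 0 can hold 1 read. The circle was named because its groups did not overlap, so the interval is no separate support. The fitted log2 difference of -1.38 (SE 0.64, limma unadjusted p = 0.0442, adjusted p = 0.890) depends on the pseudocount, and was -1.94 with a pseudocount of 8.55 SRPBM and -3.89 with one of 1 SRPBM. It missed the p threshold when any 1 library other than TLE 3 was left out (limma unadjusted p from 0.0545 to 0.119), and without TLE 3 it was -1.83.

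The 4–11 and 2–11 circles share the end of exon 11, so their parts of the signal at that end can be set side by side. This was looked at after the values were seen and is given without a test. Circles starting at exon 4 made up 23.7%, 29.3% and 34.5% of the signal ending at exon 11 in Control and 54.5%, 59.6% and 36.6% in TLE. Circles starting at exon 2 made up 13.2%, 9.76% and 10.9% in Control and 0%, 0% and 3.66% in TLE. Circles starting at exon 5 made up 27.3% to 44.7% in Control and 21.1% to 40.2% in TLE, and those starting at exon 8 made up 14.6% to 27.3% and 15.8% to 24.2%. Neither of the last 2 starts kept the groups apart.

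The remaining 14 circles tested had intervals that included 0. The largest positive value among them was 0.90 for the 8–12 circle (mmu_circ_0007320), which rested on 3 reads in Control and 9 in TLE, a rate 3.13 times higher in TLE with a counting interval of 0.781 to 18.0. The exon 2 circle (mmu_circ_0007293) had a log2 difference of -0.64 (95% interval -1.93 to 0.66). It was at 59.8 to 68.9 SRPBM in Control, at 72.3 and 77.9 SRPBM in TLE 1 and TLE 3, and listed at 0 in TLE 2, so that 1 library set its direction. For the better measured 5–11 circle the log2 difference was 0.00 with an interval of -0.87 to 0.88.

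**Figure D4:**
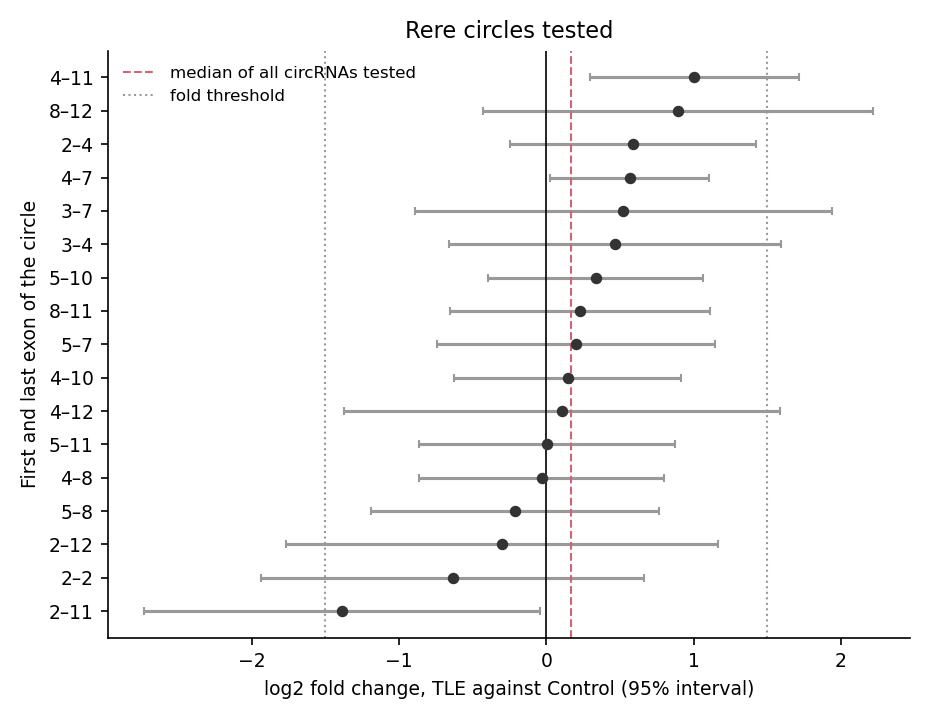
Log2 fold change of TLE against Control with its 95% interval (limma) for the 17 Rere circles tested, ordered by size, with the threshold of 1.5 either way dotted and the median of all circRNAs dashed. The values run from -1.38 to 1.01, and the intervals of the 4–11, 4–7 and 2–11 circles leave out 0.

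Summed over the 29 circles, Rere had 1504, 1534 and 1507 SRPBM in Control and 1622, 1859 and 2302 SRPBM in TLE. The means were 1515 ± 16.4 SRPBM (SD, n = 3) and 1927 ± 345 SRPBM (SD, n = 3). All TLE libraries were above all Control libraries (exact permutation test, two-sided, p = 0.1, the smallest p that 3 against 3 libraries can give). The share of all hosts without overlap was not computed, so this is a description only. As junction reads, not scaled to depth, the sums were 176, 165 and 175 in Control and 157, 212 and 266 in TLE. These overlapped (exact permutation test, two-sided, p = 0.4). In the fit over 2157 host genes the log2 difference was 0.33 (SE 0.20, 95% interval -0.10 to 0.76, limma unadjusted p = 0.124, adjusted p = 0.854), beside a median of 0.20 over all hosts. At an unadjusted p below 0.05, 5.29% of hosts were higher in TLE and 0.881% lower.

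The 2 TLE libraries with the highest totals, TLE 2 and TLE 3, also had the highest Rere sums, whereas TLE 1 had a lower total than Control 1 and Control 3 and a higher Rere sum. Rere made up 0.428%, 0.464% and 0.419% of all SRPBM in Control and 0.483%, 0.454% and 0.471% in TLE, and these shares overlapped (exact permutation test, two-sided, p = 0.2). With every library rescaled to the same total the log2 difference was 0.10. Without TLE 1, which had the lowest sum of the TLE libraries, it was 0.44 (limma unadjusted p = 0.0142), and without TLE 3 it was 0.19 (limma unadjusted p = 0.286). The median log2 difference over all circRNAs tested moved the same way, from 0.17 to 0.29 without TLE 1 and to 0.02 without TLE 3. The summed circles of the neuronal host Rims2, given above, were also higher in each TLE library than in any Control library, and those of Syt1 and Nrxn3 overlapped. Whether neuronal content had a part in the Rere sum was not tested.

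By end, the groups were apart at 2 of the 8 starts and ends used by 4 or more circles. The 8 ends share circles, and no background over other hosts was computed for sums by end. The count is therefore a description only. Circles starting at exon 4 summed to 641, 697 and 586 SRPBM in Control and 795, 929 and 1064 SRPBM in TLE (exact permutation test, two-sided, p = 0.1, Benjamini-Hochberg adjusted over 8 ends 0.4). Circles ending at exon 7 summed to 325, 325 and 370 SRPBM in Control and 485, 421 and 580 SRPBM in TLE, with the same p-values. The 4–7 circle belongs to both sums and the 4–11 circle to the exon 4 sum, so these sums are not separate from those circles. The circles 4–8, 4–10 and 4–12, which also start at exon 4, overlapped between the groups. Their means were 106, 130 and 21.0 SRPBM in Control and 108, 142 and 24.9 SRPBM in TLE. The start of exon 5 gave 452 ± 49.3 SRPBM (SD, n = 3) in Control and 512 ± 60.2 SRPBM (SD, n = 3) in TLE, and the start of exon 2 gave 228 ± 26.2 and 235 ± 88.9 SRPBM (SD, n = 3). Both overlapped between the groups.

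Within the gene, which takes out the library total, the share of the exon 4 start was 42.6%, 45.5% and 38.9% in Control and 49.0%, 50.0% and 46.2% in TLE. The groups did not overlap (exact permutation test, two-sided, p = 0.1, adjusted over the 8 ends 0.533). The shares of the other 7 starts and ends overlapped between the groups. That of the exon 7 end was 21.2% to 24.6% in Control and 22.6% to 29.9% in TLE. The top circle, 4–7, made up 18.8%, 18.2% and 16.0% of the Rere signal in Control and 25.5%, 17.9% and 20.7% in TLE (exact permutation test, two-sided, p = 0.3).

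**Figure D5:**
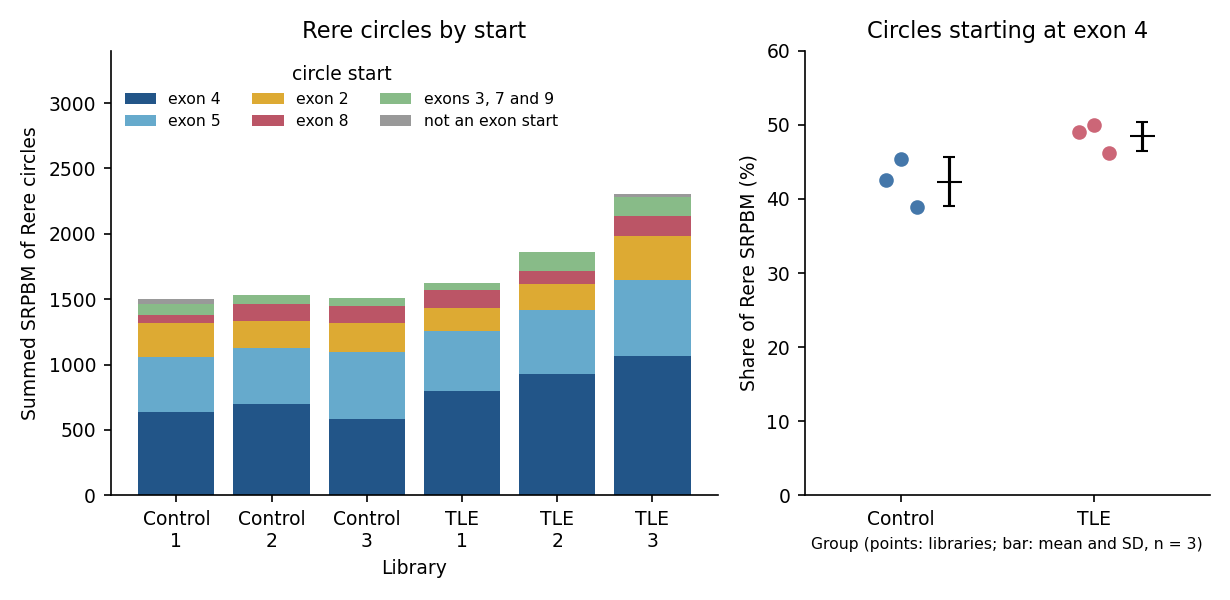
Left, summed SRPBM of the Rere circles in each library, stacked by the exon at which the circles start. Right, percent of the Rere SRPBM in circles that start at exon 4, with 1 point per library and the mean and SD of each group (n = 3). The sums lie at 1504 to 1534 SRPBM in Control and 1622 to 2302 SRPBM in TLE, and the exon 4 share at 38.9% to 45.5% and 46.2% to 50.0%.

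Among genes related to Rere by ELM2 and SANT domains or as atrophins, 6 of the 12 listed beside Rere itself were hosts of circles and 4 were tested. At an unadjusted p below 0.05, 0 were higher and 0 lower, where the background over all hosts was 5.29% higher and 0.881% lower, so that a count of 0 among so few is near the background. The median log2 difference of the 4 was -0.23, beside 0.20 over all hosts. Rcor3, a subunit of a corepressor complex with the demethylase Kdm1a, had 3 circles that summed to 97.5 ± 26.7 SRPBM (SD, n = 3) in Control and 60.8 ± 9.25 SRPBM (SD, n = 3) in TLE. Mideas, a scaffold of a histone deacetylase complex, had 1 circle with 37.9 ± 19.1 and 34.7 ± 45.7 SRPBM, and Trerf1, a transcriptional regulator, 1 circle with 29.5 ± 10.8 and 27.7 ± 2.81 SRPBM.

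Of 19 corepressors, histone-modifying enzymes, nuclear receptors and other partners of atrophins, 7 were hosts and 6 were tested, again with 0 higher and 0 lower at that p, against the same background of 5.29% and 0.881%. The median log2 difference of the 6 was 0.33, beside 0.20 over all hosts. Ehmt1, a histone H3 lysine methyltransferase, had the most signal, with 16 circles that summed to 214, 74.4 and 138 SRPBM in Control and 196, 272 and 208 SRPBM in TLE (log2 difference 0.69, SE 0.38). Ep300, a histone acetyltransferase, had 8 circles with 140 ± 77.3 and 134 ± 54.7 SRPBM (SD, n = 3). Fat1, a giant cadherin that binds atrophins, had 1 circle with 87.7 ± 14.1 and 113 ± 37.0 SRPBM (SD, n = 3). The nuclear receptor genes of the list carried no listed circle.

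The 5 hosts whose summed log2 SRPBM followed that of Rere most closely over the 6 libraries were Ralgps1 (Pearson r 0.98), Irf2 (0.98), Pdpk1 (0.97), Snhg11 (0.96) and Zfp148 (0.96). Ralgps1, an exchange factor for Ral GTPases, had 598, 614 and 637 SRPBM in Control and 702, 824 and 986 SRPBM in TLE. The total SRPBM of the libraries itself had r 0.95 with the Rere sum. The values share their libraries and depth, and the likeness is a description over 6 points.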

How the data were processed

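RNA from the cortex of each mouse was depleted of ribosomal RNA and sequenced from strand-specific libraries. The authors aligned reads with BWA-MEM, called circRNAs with CIRI and deposited 1 table of SRPBM, which is a signal normalized to library depth. The genome build was mm10 per the submitters' processing notes. The table was given 6 times with identical content and was read once. Its 6 value columns were mapped to samples by name. Exons came from GENCODE annotation of the same build, and host IDs were matched to symbols (3466 of 3469). Of 11171 circRNAs, 837 had no listed host and 61 had several, and these entered no host sum.

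Control and TLE were compared with limma 3.58.1 in R 4.3.3 (trend, two-sided) on log2(SRPBM + 17.1), the smallest value above 0, over features above 0 in at least 3 libraries, with Benjamini-Hochberg adjustment over all of them. Single values were compared by exact permutation of 3 against 3 libraries. Each library came from a separate mouse. The fit was also run on simulated data with counting error only and no variation between mice. Large changes were planted there in circRNAs with more reads than most Rere circles had, so that run does not bear on most Rere circles. Values were taken as whole junction reads where they lay within 0.1 of a whole number of steps, which 100% did in each library. Intervals on reads cover counting error only and take a listed 0 as 0 reads.

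Named were the 10 Rere circles with the highest means, those past the threshold or without overlap, starts and ends used by 4 or more circles, host list members at an unadjusted p below 0.05 or the 3 with the highest mean, and the 5 hosts most like Rere. Other circles are named where a count or a library turned on them, after their values were seen. The members and lists were chosen with earlier results of these data known. Alternatives covered the pseudocount, the filter, the scaling, the variance trend, the replicate block, the thresholds and each library left out. The replicate numbers were not taken to pair the samples. The correlations of same-numbered libraries were 0.019, 0.014 and 0.010, and those of differently numbered ones ran from -0.024 to 0.0092. Values this near 0 cannot show whether the design was paired. The threshold of the authors' own comparison was used, but none of their fold changes. Rims1 was not analysed here, and 1 marker host and 1 junction sequence are not reported here.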

Additional observations from a re-analysis of the deposited data

Results flagged for a closer look

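A circle inside Rere without a listed host, mmu_circ_0007301, lay outside the comparisons above and carried signal in TLE above its level in Control. It runs at chr4:150420638-150439468 from within intron 2 to the end of exon 4. Its values were 0, 0 and 17.2 SRPBM in Control and 62.0, 26.3 and 26.0 SRPBM in TLE, with means of 5.74 and 38.1 SRPBM. That is 2 reads against 12, a rate 6.26 times higher in TLE with an exact 95% counting interval of 1.39 to 57.6, and limma gave a log2 difference of 1.29 (SE 0.63, unadjusted p = 0.0553, adjusted p = 0.922). The interval takes Control 1 and Control 2 as 0 reads, though each listed 0 can hold 1 read. Of the 12 reads, 6 came from TLE 1. The circle was flagged for its signal in TLE, so the interval is no separate support. A second such circle, mmu_circ_0007302, also ended at exon 4 and had 17.1, 18.6 and 34.5 SRPBM in Control and 0, 35.1 and 26.0 SRPBM in TLE, which overlapped.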

How the results depend on the processing

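The count of 0 Rere circles past the threshold became 1 with a pseudocount of 8.55 SRPBM and 1 with rescaled libraries, in both cases the 2–11 circle, and 2 at a log2 fold change threshold of 1. Leaving out 1 library gave 0 to 1, the 1 being the 2–11 circle without TLE 3 (-1.83). Without TLE 1 the smallest adjusted p over all circRNAs was 0.00774, with 4 circRNAs below 0.05, and that over Rere circles 0.290. The replicate block gave 0 past the threshold and a summed log2 difference of 0.33 (limma unadjusted p = 0.0873), and changed no call. The summed log2 difference ranged from 0.19 to 0.44 with 1 library left out. All circles with Rere as listed host that were above 0 in at least 3 libraries had both ends on exon boundaries (100%). That share leaves out mmu_circ_0007301 and mmu_circ_0007302, which have no listed host and start within intron 2. Weighting by SRPBM gave the exon 2 start 13.5%. Of 13 alternatives for each named circle, the unadjusted p rose above 0.05 in 9 for 4–7, in 2 for 4–11 and in 6 for 2–11, and no direction turned. A count test on recovered reads was not run. With 3 libraries a group and a median of 13 reads per circle, depth limits what single circles can show.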
